A study of Homo sapiens with 7 samples.

Results

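TRIM28 and RNA polymerase II (Pol II) were mapped on chromatin in the same human B-cell line, and the peaks of the 2 targets were compared by the distance between their summits. A summit is the single base at which the authors' peak caller placed the highest signal of a peak. Every TRIM28 peak on chromosomes 1 to 22 was used, 43998 of the 45044 in the deposited list, and for each the nearest Pol II summit was sought among 19336 of the 19908 Pol II peaks. The distances were sorted into 6 bins: under 100 bp, 100 to 500 bp, 500 to 2000 bp, 2000 to 10000 bp, 10000 to 100000 bp and over 100000 bp.

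The libraries belonged to a series of 7 chromatin immunoprecipitation sequencing (ChIP-seq) samples, 1 per antibody, in BJAB cells, an established line derived from a Burkitt's lymphoma. Besides Pol II and TRIM28, the series covered the elongation factor SPT5, the O-GlcNAc hydrolase OGA, the O-GlcNAc modification itself and mouse and rabbit IgG. The IgG libraries were not analysed here. The 5 peak lists used held 132893 peaks in all.

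The Pol II group was 1 library made with antibody 8WG16, and the TRIM28 group was 1 library made with an Abcam antibody to TRIM28, also named TIF1b in the labels. The labels name no treatment, genotype or time for either group, and give the passage of the cells only as multiple. Both libraries came from cells fixed in 1% formaldehyde for 5 min, with 10 µg of antibody per precipitation and 25 ng of DNA per library. No replicate of either target was used, so no comparison here has a replicate check and no test was made. Each share is given with a 95% Wilson interval and each median with a 95% order-statistic interval. These intervals cover counting error only, and they treat neighbouring peaks as independent, which they are not.

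TRIM28 (KAP1, TIF1b) is a corepressor without a DNA-binding domain of its own. It is brought to DNA chiefly by KRAB zinc finger proteins and recruits the histone methyltransferase SETDB1 and HP1 proteins, which establish silent chromatin over zinc finger genes and transposable elements. TRIM28 has also been described at promoters, where it has been linked to the pausing of Pol II shortly after initiation. Antibody 8WG16 recognises the heptad repeats in the C-terminal domain of the largest Pol II subunit, and mostly the form that is not heavily phosphorylated, which is found at promoters. The peak lists hold no independent check of either antibody's target.

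The lists themselves differed in shape. The median TRIM28 peak was 304 bp wide and the median Pol II peak 506 bp. Together the TRIM28 peaks covered 15.3 Mb and the Pol II peaks 11.7 Mb. In both lists the smallest deposited −log10 q was 1.31. Total reads were not analysed here, so the depth behind each list is unknown. Peak height is the authors' fold enrichment, a ratio over an unnamed background, and heights were compared only within 1 list.

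TRIM28 summits formed a group close to Pol II and a larger group far from it. Of all TRIM28 summits, 12076 lay within 500 bp of a Pol II summit, a share of 27.4% [27.0 to 27.9%]. More than 10000 bp from any Pol II summit lay 23138, a share of 52.6% [52.1 to 53.1%]. The median distance was 12405.5 bp [11978 to 12877 bp], and the quartiles were 340 bp and 69495 bp.

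By bin, 5623 summits, 12.8% [12.5 to 13.1%], lay under 100 bp from Pol II. A further 6453, 14.7% [14.3 to 15.0%], lay at 100 to 500 bp. At 500 to 2000 bp lay 3126 summits, 7.10% [6.87 to 7.35%], the fewest of the 6 bins by summit distance. Measured instead as the gap between peak edges, which is 0 where peaks overlap, 29.4% lay under 100 bp, 2.07% at 100 to 500 bp and 4.19% at 500 to 2000 bp, so that the bin from 100 to 500 bp held the fewest. From 2000 to 10000 bp there were 5658 summits, 12.9% [12.6 to 13.2%]. The fullest bin was 10000 to 100000 bp, with 14440 summits, 32.8% [32.4 to 33.3%]. Over 100000 bp lay 8698 summits, 19.8% [19.4 to 20.1%], and 646 of these were over 1 Mb away. Within 2000 bp the cumulative share was 34.6%.

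On equal steps of 0.1 in log10 distance, the summits showed 2 maxima with a trough between them. The nearer maximum was the step from 200 to 251 bp with 1133 summits, and the farther one, on a broad plateau, the step from 25119 to 31623 bp with 1561. The trough was the step from 1585 to 1995 bp, with 469 summits. Counted per base, TRIM28 summits were densest in the first 40 bp, at a nearly even level. The first 10 bp held 651 TRIM28 summits, and the next 3 steps of 10 bp held 700, 706 and 650. The 10 bp from 90 to 99 bp held 369, those from 190 to 199 bp held 244 and those from 390 to 399 bp held 69. On the very base of a Pol II summit lay 42 TRIM28 summits. Within 500 bp the sides were close to balanced, with 5968 TRIM28 summits at lower coordinates than the Pol II summit and 6066 at higher ones.

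**Figure D1:**
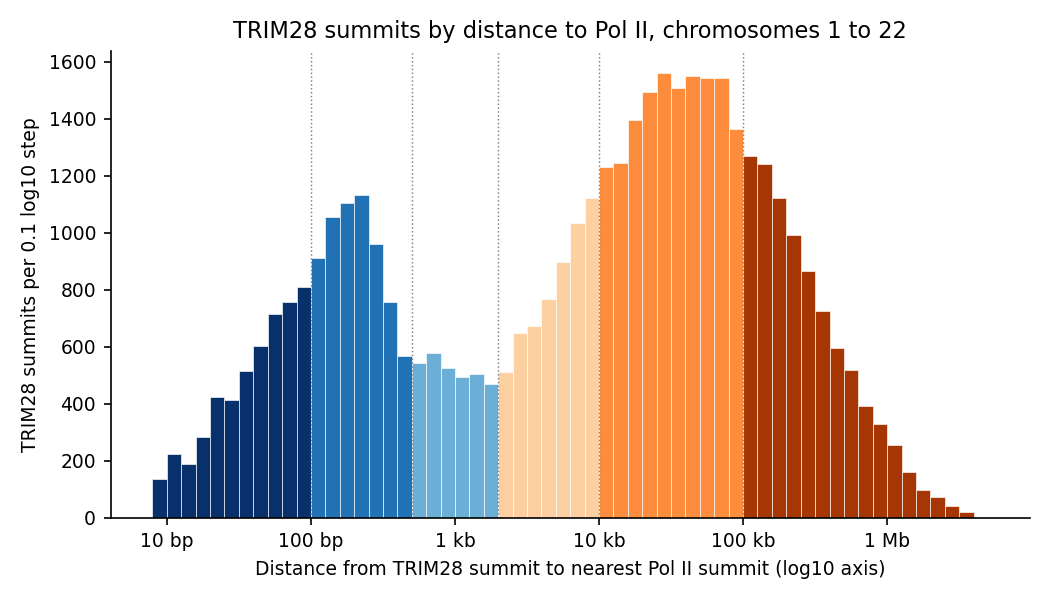
Number of TRIM28 summits by distance to the nearest Pol II summit, in equal steps of log distance (log axis, bp) from 8 bp upwards, on chromosomes 1 to 22; dotted lines mark the bin limits and the 516 summits nearer than 8 bp are not drawn. The counts have a maximum at 200 to 251 bp, a trough at 1585 to 1995 bp and a second maximum at 25119 to 31623 bp.

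TRIM28 peaks far from Pol II were taller and narrower than those close to it. The median fold enrichment was 2.97 [2.94 to 2.99] for the 12076 peaks within 500 bp and 4.02 [4.00 to 4.03] for the 23138 peaks over 10000 bp away, a difference of −1.06. The median width was 368 bp [364 to 373 bp] near Pol II and 286 bp [285 to 288 bp] far from it, a difference of 82 bp. When the TRIM28 list was shortened to its 19336 strongest peaks by −log10 p, as many as the Pol II list holds, the fold difference was −1.93 and the width difference 128 bp. With peaks within 500 bp of each other merged, the width difference was 132 bp and the fold difference −0.989.

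Median height did not change across the 3 nearest bins beyond the intervals. The median fold enrichment was 2.99 [2.95 to 3.01] under 100 bp, 2.94 [2.93 to 2.98] at 100 to 500 bp and 2.99 [2.95 to 3.01] at 500 to 2000 bp. It was higher in each bin after that: 3.47 [3.43 to 3.51] at 2000 to 10000 bp, 3.87 [3.85 to 3.91] at 10000 to 100000 bp and 4.21 [4.20 to 4.24] over 100000 bp. The spread of single peaks overlapped between bins, with quartiles of 2.56 and 3.55 under 100 bp and of 3.39 and 5.62 over 100000 bp.

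The tall peaks showed the difference most plainly. A fold enrichment over 5 was reached by 3.33% of peaks under 100 bp, 3.46% at 100 to 500 bp and 5.76% at 500 to 2000 bp. The share was 18.1% at 2000 to 10000 bp, 27.3% at 10000 to 100000 bp and 33.6% over 100000 bp. A fold enrichment over 10 was found at 1 of the 5623 peaks under 100 bp, at 5 from 100 to 500 bp and at 14 from 500 to 2000 bp. In the outer 3 bins it was found at 185, 750 and 481 peaks, which was 3.27%, 5.19% and 5.53% of them. The tallest peak of each bin, from nearest to farthest, had a fold enrichment of 11.2, 15.6, 20.2, 37.8, 32.7 and 45.4.

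Width followed another order. The widest bin was 100 to 500 bp, with a median of 384 bp [378 to 390 bp], followed by the bin under 100 bp with 353 bp [348 to 359 bp]. From 500 bp outwards the medians lay in a narrow band: 300 bp [293 to 306 bp], 294 bp [291 to 298 bp], 291 bp [289 to 293 bp] and 278 bp [275 to 281 bp]. Peaks wider than 500 bp made up 23.2% of the bin under 100 bp and 29.3% of the bin from 100 to 500 bp. They made up 13.0%, 9.23%, 7.83% and 5.07% of the bins beyond. The 500 to 2000 bp bin thus had the median height of the near bins, with more peaks over 5, and a median width close to that of the far ones. Its median −log10 p, 8.46, was the lowest of the 6 bins, the others having 9.76 to 10.4.

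**Figure D2:**
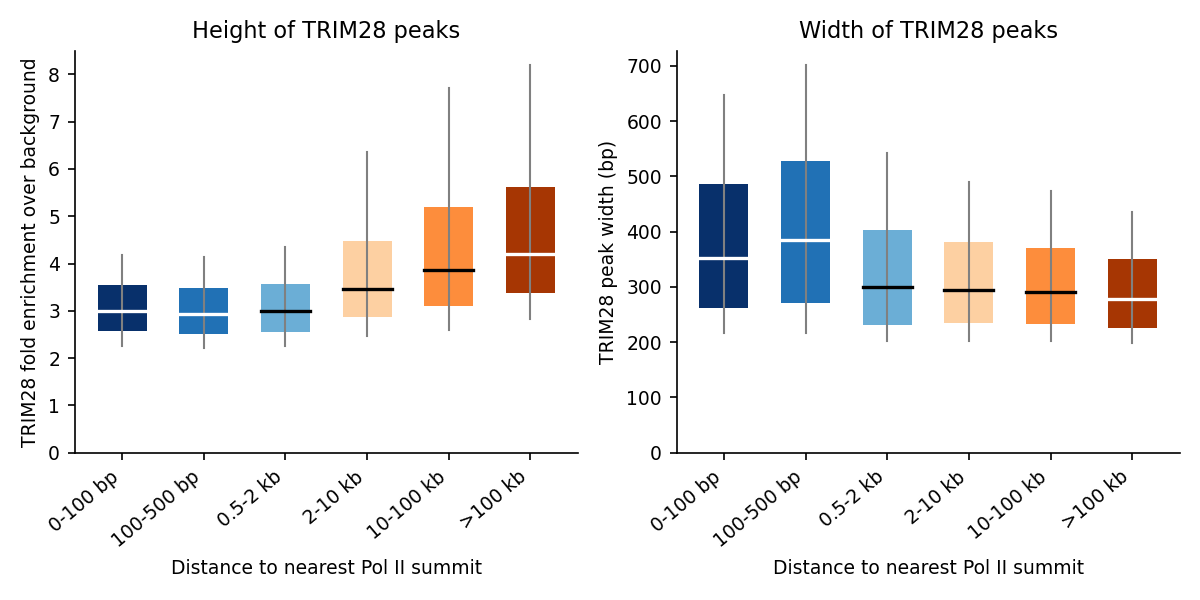
Fold enrichment (left, authors' ratio) and width (right, bp) of TRIM28 peaks in the 6 distance bins, on linear axes from 0; the bar is the median, the box the quartiles and the line the 10th to 90th percentile. Median height is 2.94 to 2.99 in the 3 nearest bins and 4.21 over 100000 bp, while median width is 353 and 384 bp in the first 2 bins and 278 to 300 bp beyond.

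Height, width and −log10 p are related within a list, so the bins were also compared within each of 4 equal groups of peaks by width or by −log10 p. In the narrowest group, 189 to 237 bp, the median fold enrichment was 2.69 [2.66 to 2.74] under 100 bp and 3.70 [3.66 to 3.74] over 100000 bp. In the widest group, 405 to 2351 bp, it was 3.21 [3.16 to 3.25] and 6.11 [5.73 to 6.39]. In the lowest group by −log10 p it was 2.37 [2.34 to 2.39] under 100 bp and 3.02 [3.01 to 3.08] over 100000 bp, and the widths were 273 and 229 bp. In the highest group it was 4.07 [4.03 to 4.13] and 7.01 [6.85 to 7.10], and the widths were 487 and 362 bp. The far peaks were the taller ones in each of these groups, by amounts that differed. At 500 to 2000 bp the median was 2.49 [2.46 to 2.52] in the lowest group by −log10 p and 4.48 [4.33 to 4.63] in the highest. Both were above the medians under 100 bp. In the narrowest and widest groups it was 2.77 [2.73 to 2.81] and 3.27 [3.21 to 3.39], with intervals that overlapped those under 100 bp. Between peaks within 500 bp and over 10000 bp the fold difference was −0.528 in the lowest group by −log10 p and −2.69 in the highest, and −0.876 in the narrowest and −2.20 in the widest group. The width difference was 2 bp in the narrowest group, 40 bp in the lowest group by −log10 p and 140 bp in the highest. These groups were chosen after seeing the data.

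Read in the other direction, the lower a TRIM28 peak was, the more often it lay beside Pol II. In the lowest decile by fold enrichment, 1.37 to 2.42, 51.2% of summits lay within 500 bp of a Pol II summit. The next deciles had 44.5%, 40.4%, 36.4%, 31.0%, 26.3%, 19.8%, 14.3% and 8.50%. In the highest decile, 6.48 to 45.4, it was 1.93%. The highest decile had 1.08% where both lists were limited to a −log10 q of 5 or more, and 0.776% with the shortened TRIM28 list. The share over 10000 bp away was 25.5% in the lowest decile and 83.9% in the highest. The median distance was 451.5 bp in the lowest decile and 52814.5 bp in the highest.

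Deciles by −log10 p did not show such a gradient. The lower 9 had between 25.3% and 32.2% of summits within 500 bp, and the highest had 11.0%. Deciles by width ran the opposite way, with 16.4% within 500 bp in the narrowest decile and 58.9% in the widest, 539 to 2351 bp.

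The tallest TRIM28 peaks lay away from Pol II. None of the 100 with the highest fold enrichment, 20.5 or more, lay within 2000 bp of a Pol II summit, a count of 0 that allows a share of up to 3% by a limit of 3 counts and 3.70% by the upper Wilson bound. Of these 100, 84.0% lay over 10000 bp away, against 52.6% of all TRIM28 summits, and 1 overlapped an SPT5 peak, against 43.9% of all TRIM28 peaks and 14.5% of those over 10000 bp away. Among the 500 tallest, 1 lay within 500 bp, and among the 1000 tallest, 3 lay within 500 bp and 12 within 2000 bp.

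**Figure D3:**
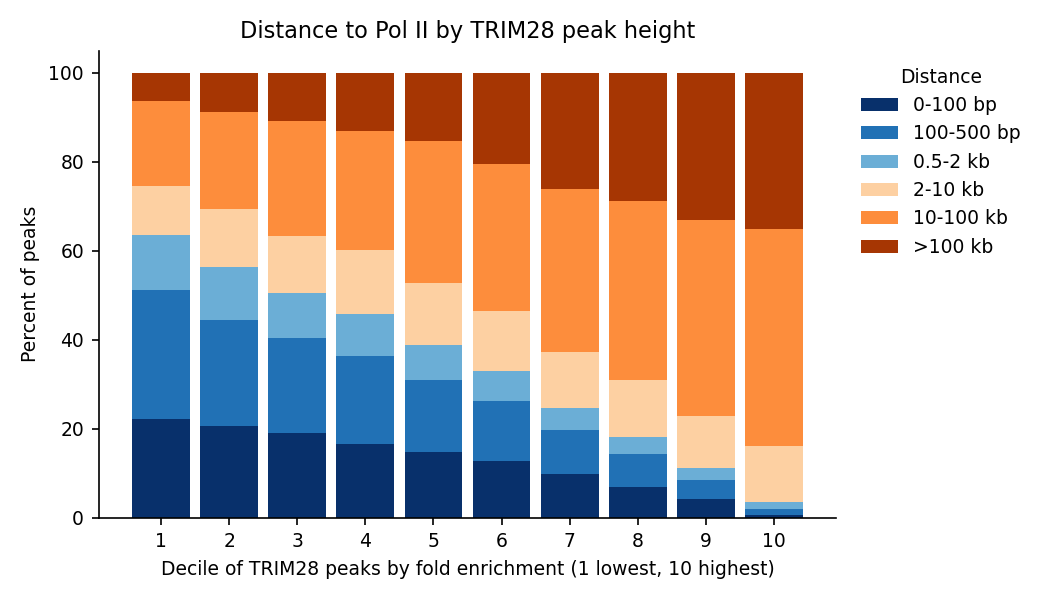
Stacked bars of the percent of TRIM28 peaks in each of the 6 distance bins, for the 10 deciles of the TRIM28 list from lowest (1) to highest (10) fold enrichment. The bins within 500 bp make up 51.2% of the lowest decile and 1.93% of the highest, and those over 10000 bp 25.5% and 83.9%.

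The 500 to 2000 bp bin, the sparsest by summit distance, was examined by its neighbours. For 2339 of its 3126 summits, 74.8%, another TRIM28 summit lay nearer to the same Pol II summit. This share was higher with distance over all bins: 0.0356% under 100 bp, 11.5% at 100 to 500 bp, and 85.7%, 93.8% and 99.0% in the outer 3. A second TRIM28 summit within 2 kb was found for 79.7% of the summits in the 500 to 2000 bp bin. It was found for 38.6% under 100 bp, 41.4% at 100 to 500 bp and 29.0% at 2000 to 10000 bp. Farther out it was 18.6% at 10000 to 100000 bp and 10.7% over 100000 bp. In the 500 to 2000 bp bin this share is tied to the 74.8%. A nearer TRIM28 summit on the same side of the Pol II summit lies within 2 kb by definition. The nearest Pol II peak of summits in this bin was wider than 1000 bp in 28.5% [26.9 to 30.1%] of cases, against 10.8 to 19.6% in the other bins. Of those 891 summits, 659, or 74.0%, lay inside that broad Pol II peak.

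A TRIM28 summit within 500 bp usually lay inside the Pol II peak with the nearest summit. This was the case for 99.3% of summits under 100 bp, 79.3% at 100 to 500 bp and 23.4% at 500 to 2000 bp. At 2000 to 10000 bp it was 0.265%.

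Where a TRIM28 and a Pol II summit were each the nearest of the other, their heights were close to unrelated. There were 11331 such pairs within 500 bp, which took in 93.8% of the 12076 near TRIM28 summits. Across these pairs Spearman's rho between the fold enrichments was 0.0564 and Pearson's r of their log2 values was 0.0508. For the widths rho was 0.253. The pairs are peaks of 1 library each, so these coefficients describe the lists and have no test. The Pol II peaks of the pairs had a median width of 601 bp and the TRIM28 peaks 378 bp, and the TRIM28 peak was the wider in 2582 pairs, 22.8%.

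Divided into 5 equal groups by Pol II fold enrichment, the pairs had median TRIM28 fold enrichments of 2.93, 2.99, 2.93, 2.99 and 3.10 from the lowest group (1.65 to 3.42) to the highest (8.67 to 24.7). The median TRIM28 widths were 345, 351, 380, 407 and 425 bp. TRIM28 peaks at tall Pol II peaks were thus wider, with little difference in height.

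Seen from the Pol II list, most peaks had TRIM28 close by. Of 19336 Pol II summits, 11806 lay within 500 bp of a TRIM28 summit, 61.1% [60.4 to 61.7%]. Under 100 bp lay 5621, 29.1%, and at 100 to 500 bp 6185, 32.0%. The bins beyond held 12.3%, 11.1%, 14.0% and 1.57%. This share depended on the length of the TRIM28 list: against the 19336 strongest TRIM28 peaks it was 27.1%, and with a −log10 q of at least 5 in both lists it was 46.6%.

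Pol II peaks with TRIM28 close by were taller and wider than others, while TRIM28 peaks close to Pol II were the lower ones of their list. From 500 bp outwards the median height was higher with distance in both lists. The median Pol II fold enrichment was 5.65 under 100 bp and 5.48 at 100 to 500 bp. It was 3.60 at 500 to 2000 bp and 3.85 at 2000 to 10000 bp, then 4.69 at 10000 to 100000 bp and 4.95 over 100000 bp. The median Pol II widths in the same order were 566, 609, 387, 383, 412 and 454 bp. In the lowest decile of Pol II peaks by fold enrichment 49.0% had a TRIM28 summit within 500 bp, and in the highest 75.9%.

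By Pol II width the share within 500 bp was 40.7% up to 300 bp, 55.6% from 300 to 500 bp, 71.0% from 500 to 1000 bp, 77.4% from 1000 to 2000 bp and 64.0% for the 250 peaks over 2000 bp. A TRIM28 summit was counted as inside a Pol II peak only where that peak had the nearest Pol II summit. By this count TRIM28 summits lay inside 23.2%, 43.2%, 68.7%, 83.3% and 82.0% of the peaks of these classes. Several TRIM28 summits inside 1 Pol II peak were found in 3.64% of the peaks from 500 to 1000 bp, in 26.2% from 1000 to 2000 bp and in 46.8% over 2000 bp. In all, by the same count, 8919 Pol II peaks held no TRIM28 summit, 9498 held 1, 815 held 2, 96 held 3, 7 held 4 and 1 held 5.

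The place of TRIM28 inside Pol II peaks differed with their width. Each Pol II peak was divided into 5 equal parts along its length. In peaks up to 300 bp wide, 22.3% of the TRIM28 summits inside lay in the middle part and 33.4% in the outermost 2 together, and from 300 to 500 bp it was 31.6% and 24.1%. In peaks from 500 to 1000 bp it was 37.7% and 13.2%. From 1000 to 2000 bp it was 22.2% in the middle part and 25.7% in the outermost 2. Over 2000 bp it was 19.2% and 38.3%. Relative to peak length, TRIM28 summits were thus most central in Pol II peaks from 500 to 1000 bp, and less so in narrower and in wider ones. Over 2000 bp the shares were close to those of an even spread over the 5 parts. In bp, these summits lay nearest to the Pol II summit in the narrowest peaks. The median distances were 51.5, 71, 114, 234 and 600 bp from the narrowest class to the widest.

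The single Pol II peak with 5 TRIM28 summits was chr1:2477266-2480690 (hg19), 3425 bp wide with a Pol II fold enrichment of 13.7. Of the 7 peaks with 4, the narrowest were chr22:41487122-41489200, 2079 bp wide with a fold enrichment of 9.17, and chr10:52383356-52385499, 2144 bp wide with 5.99. These 3 peaks overlapped SPT5 and O-GlcNAc peaks and no OGA peak. The other peaks with 4 also overlapped SPT5. Those on chromosomes 14, 5, 8 and 21 overlapped no O-GlcNAc peak, and the one on chromosome 7 did. Only the one on chromosome 21 overlapped OGA. Of all Pol II peaks over 2000 bp, 100% overlapped SPT5, 41.6% O-GlcNAc and 24.4% OGA.

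Overlap with SPT5 and O-GlcNAc differed widely between near and far TRIM28 peaks, and overlap with OGA differed less. SPT5 is a subunit of DSIF, which takes part in pausing and then travels with elongating Pol II. An SPT5 peak overlapped, by at least 1 bp, 98.2% of TRIM28 peaks under 100 bp from Pol II, 97.7% at 100 to 500 bp and 70.4% at 500 to 2000 bp. The share was 34.3% at 2000 to 10000 bp, 18.6% at 10000 to 100000 bp and 7.82% over 100000 bp. SPT5 also overlapped 95.5% of all Pol II peaks and 88.3% of those over 10000 bp from a TRIM28 summit. Overlap with SPT5 near Pol II was thus not particular to sites with TRIM28.

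O-GlcNAc is a sugar placed on serine and threonine residues of nuclear and cytoplasmic proteins, Pol II among them. O-GlcNAc peaks overlapped 41.1% and 46.0% of TRIM28 peaks in the nearest 2 bins and 7.93% at 500 to 2000 bp. In the outer 3 bins it was 0.848%, 0.810% and 0.736%. O-GlcNAc peaks overlapped 40.4% of all Pol II peaks. By distance to TRIM28 they overlapped 46.6% of Pol II peaks within 500 bp and 41.2% of those over 10000 bp away. Between these it was 22.3% at 500 to 2000 bp and 24.6% at 2000 to 10000 bp. OGA, the enzyme that removes the sugar, had a far shorter list of 2503 peaks. It overlapped 7.56%, 9.93%, 4.70%, 3.46%, 3.66% and 3.71% of TRIM28 peaks from the nearest to the farthest bin. OGA overlapped 6.11% of all Pol II peaks and 0.961% of those over 10000 bp from a TRIM28 summit. TRIM28 peaks that overlapped none of these 3 lists made up 1.64% and 2.06% of the nearest 2 bins, 29.3% at 500 to 2000 bp, and 64.5%, 79.5% and 89.3% of the outer ones.

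**Figure D4:**
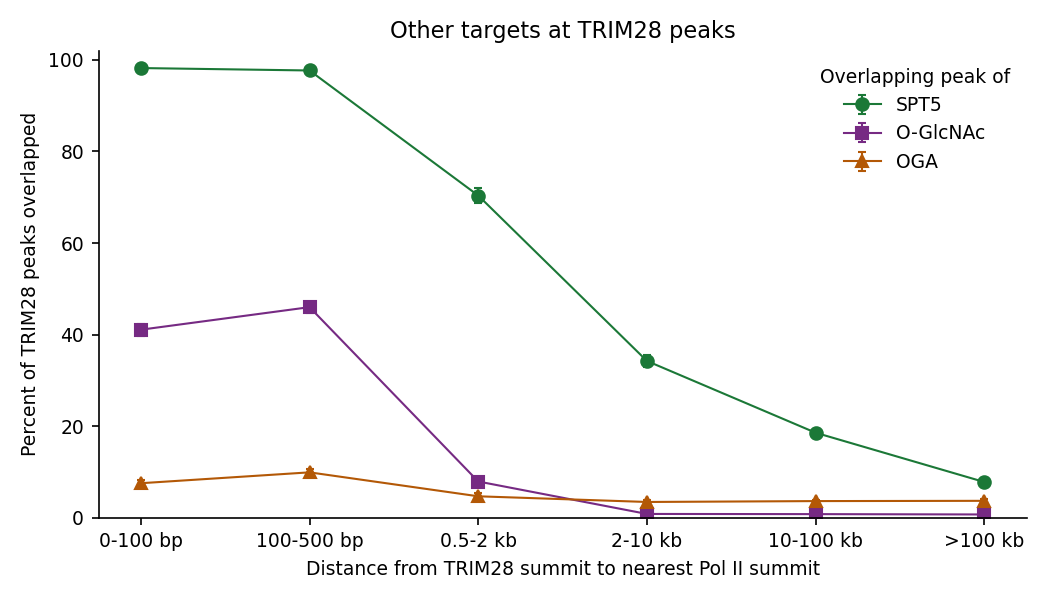
Percent of TRIM28 peaks in each distance bin that overlapped an SPT5, OGA or O-GlcNAc peak by at least 1 bp, with 95% Wilson intervals. SPT5 goes from 98.2% in the nearest bin to 7.82% in the farthest, O-GlcNAc from 41.1% to 0.736% and OGA from 7.56% to 3.71%.

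SPT5 overlap went with TRIM28 height also far from Pol II. Among TRIM28 peaks over 10000 bp away, the 3363 that overlapped SPT5 had a median fold enrichment of 3.26 [3.23 to 3.30] and a median width of 319 bp. The 19775 that did not had 4.18 [4.14 to 4.20] and 281 bp. Within 500 bp the 11827 with SPT5 had a median of 2.96 and a width of 372 bp, and the 249 without had 3.13 [3.00 to 3.29] and 260 bp. Far peaks without SPT5 were thus taller than near peaks without it.

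The distance profile of TRIM28 was set beside those of the other lists, each measured to Pol II in the same way. SPT5, with 54885 peaks, had 28.9% of its summits within 500 bp of a Pol II summit and 38.9% over 10000 bp, and 4.52% lay over 100000 bp away, against 19.8% for TRIM28. Its near summits were mostly under 100 bp, 23.7%, with 5.23% at 100 to 500 bp, where TRIM28 had 12.8% and 14.7%. Its heights ran the other way from those of TRIM28, with a median fold enrichment of 7.09 within 500 bp and 3.05 over 10000 bp, and widths of 831 and 319 bp.

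O-GlcNAc had 79.0% of its summits within 500 bp, most of them at 100 to 500 bp, 60.6%, and 6.16% over 100000 bp. OGA had 45.1% within 500 bp and 15.5% over 100000 bp. Of these lists, OGA had a higher median fold enrichment far from Pol II than near it, as TRIM28 did: 3.68 over 10000 bp against 3.11 within 500 bp. For O-GlcNAc it was 3.75 against 3.93. The lists differ in length, so the shares describe each list and were not tested against each other.

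The differences in height and width were present on each chromosome. On 22 of 22 chromosomes the median fold enrichment of TRIM28 was lower within 500 bp of Pol II than over 10000 bp away, and on 22 the intervals were apart. The difference ran from −1.33 on chromosome 13 to −0.642 on chromosome 20. The median width was larger near Pol II on 22 of 22 chromosomes, with intervals apart on 22, by 49 bp on chromosome 19 up to 124 bp on chromosome 7.

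By bin, the chromosome medians of fold enrichment ran from 2.66 (chromosome 13) to 3.23 (chromosome 8) under 100 bp, from 2.67 (chromosome 7) to 3.13 (chromosome 6) at 100 to 500 bp, and from 2.72 (chromosome 7) to 3.20 (chromosome 8) at 500 to 2000 bp. They ran from 3.25 (chromosome 16) to 3.73 (chromosome 18) at 2000 to 10000 bp. At 10000 to 100000 bp they ran from 3.46 (chromosome 20) to 4.20 (chromosome 21), and over 100000 bp from 3.70 (chromosome 17) to 4.97 (chromosome 21). The ranges of the 3 nearest bins did not overlap those of the 3 farthest.

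Chromosome medians of width ran from 317.5 to 402 bp under 100 bp, from 337 to 439 bp at 100 to 500 bp and from 263.5 to 322 bp at 500 to 2000 bp. In the outer bins they ran from 275 to 312 bp, from 281 to 306 bp and from 262.5 to 304 bp. All chromosomes were narrower beyond 2000 bp than any was under 500 bp. The smallest of these chromosome bins held 34 peaks.

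The share of TRIM28 close to Pol II differed between chromosomes. It was highest on chromosome 19, where 40.8% [38.7 to 42.9%] of the 2121 summits lay within 500 bp. Chromosomes 17, with 33.5% [31.7 to 35.4%], and 22, with 33.4% [30.7 to 36.2%], came next and did not differ beyond their intervals. It was lowest on chromosomes 13, with 20.1% [17.6 to 22.9%], 4, with 20.8% [19.1 to 22.7%], and 18, with 21.3% [18.7 to 24.2%], whose intervals overlapped. The median distance was 1643 bp on chromosome 19 and 35120.5 bp on chromosome 4. Over 100000 bp from Pol II lay 4.48% of the summits on chromosome 19, 10.3% on 17, 30.7% on 18, 31.6% on 13 and 32.1% on 4.

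Chromosome 19, which is known for its density of genes and its clusters of KRAB zinc finger genes, stood apart in distance but not in height. Its median fold enrichments by bin, from near to far, were 2.98, 2.98, 3.02, 3.47, 4.00 and 4.20, and its widths 341, 359, 297, 301.5, 305.5 and 286 bp. On chromosome 4, the one with the longest median distance, the fold enrichments were 3.05, 2.89, 3.03, 3.65, 4.13 and 4.36 and the widths 364, 359, 293, 279, 286 and 270.5 bp.

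The share within 500 bp followed the density of Pol II peaks. Pol II density ran from 3.49 peaks per Mb on chromosome 18 to 23.6 on chromosome 19. Over the 22 chromosomes Pearson's r between Pol II peaks per Mb and the share of TRIM28 within 500 bp was 0.911, and Spearman's rho 0.883. Without chromosomes 19 and 22, the farthest from the median density, r was 0.844. With the share over 10000 bp, r was −0.948 and rho −0.936. The points share both libraries, and Pol II density enters the distance itself, so these coefficients are descriptions without a test.

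**Figure D5:**
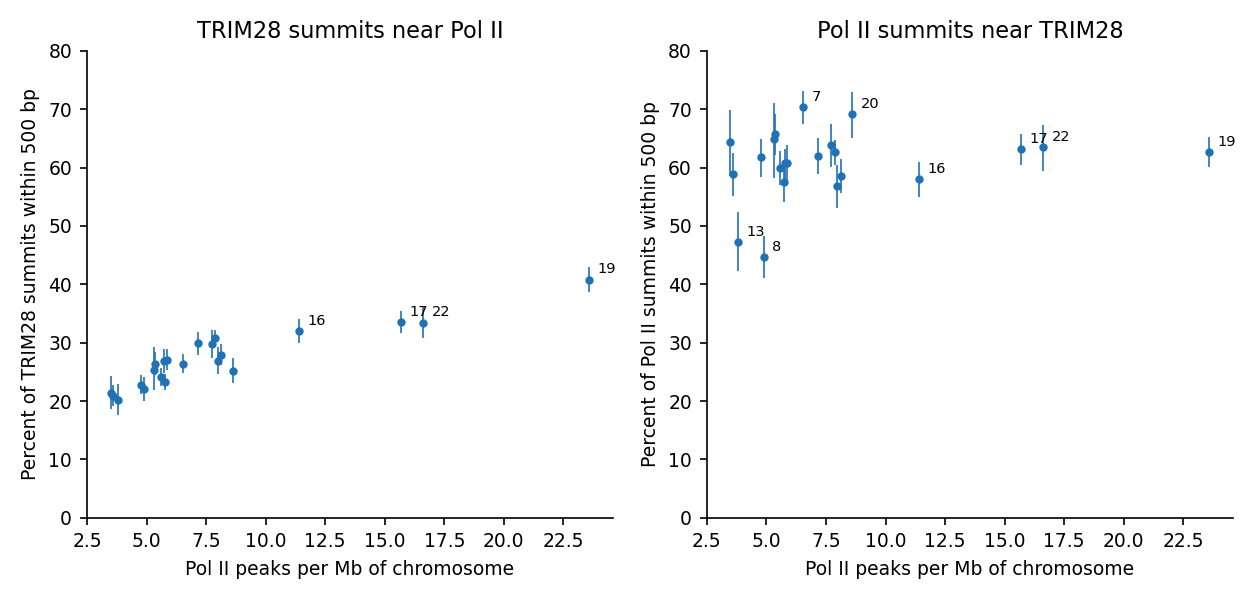
Each point is 1 of the 22 chromosomes: Pol II peaks per Mb against the percent of TRIM28 summits within 500 bp of Pol II, and against the percent of Pol II summits within 500 bp of TRIM28, with 95% Wilson intervals. The first share goes from 20.1% to 40.8% with density, while in the second chromosomes 8 and 13, at 44.7% and 47.3%, lie below the other 20, at 56.8 to 70.4%.

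The share of Pol II summits with TRIM28 within 500 bp did not follow Pol II density, with an r of 0.218 and a rho of 0.171 over the 22 chromosomes. Chromosomes 8, with 44.7% [41.1 to 48.3%], and 13, with 47.3% [42.2 to 52.4%], were the lowest. The next, chromosome 14, had 56.8% [53.1 to 60.4%]. The highest were chromosomes 7, with 70.4% [67.5 to 73.1%], and 20, with 69.1% [65.1 to 72.9%]. TRIM28 peaks numbered 10.3 per Mb on chromosome 8 and 9.0 on 13, against 18.0 on 7 and 25.3 on 20. Chromosomes 4 and 18, with 10.5 and 10.9 TRIM28 peaks per Mb, were close to chromosome 8 in TRIM28 density. On chromosomes 4 and 18, 58.8% [55.1 to 62.5%] and 64.3% [58.5 to 69.8%] of Pol II summits had TRIM28 within 500 bp. Their Pol II density was lower, at 3.59 and 3.49 peaks per Mb against 4.89 on chromosome 8. Whether peak density accounts for the low shares on chromosomes 8 and 13 was not tested.

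SPT5 and O-GlcNAc did not set chromosomes 8 and 13 apart in this way, while OGA was lowest on chromosome 8. SPT5 lay within 500 bp of 84.0% of Pol II summits on chromosome 8 and 84.2% on 13, within a range of 78.2 to 86.4% over all 22. For O-GlcNAc it was 34.7% and 38.5%, in a range of 32.6 to 53.6%. For OGA it was 2.80% [1.82 to 4.29%] and 4.64%, against 4.09 to 9.24% on the other 20. Chromosome 8 thus lay below the others there too, but its interval overlapped that of chromosome 4, 4.09% [2.84 to 5.84%].

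Most of the long gaps between neighbouring Pol II summits held TRIM28. Each gap ran from summit to summit, so TRIM28 summits beside the flanking Pol II summits were counted in it. Of 2728 gaps of over 200 kb between neighbouring Pol II summits, 96.9% held at least 1 TRIM28 summit, and together they held 18052 summits, 41.0% of the list. At least 1 was held by 83.4% of gaps from 20 to 200 kb, 67.2% from 2 to 20 kb and 44.0% up to 2 kb. Whether these shares exceed what gap length alone would give was not tested. The 7800 gaps from 20 to 200 kb held 18445, 41.9%. Per length the order was the reverse: 8.33 summits per Mb in gaps over 200 kb, 32.2 from 20 to 200 kb, 125 from 2 to 20 kb and 563 in gaps of up to 2 kb.

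The 3 gaps with the most TRIM28 summits were on chromosomes 9, 2 and 5. Between the Pol II summits at 15554559 and 19049248 of chromosome 9, a stretch of 3.49 Mb, lay 60 TRIM28 summits with a median fold enrichment of 4.03. Between 7005769 and 8655675 of chromosome 2, a stretch of 1.65 Mb, lay 59 with a median of 3.67. Between 18292818 and 21341398 of chromosome 5, a stretch of 3.05 Mb, lay 52 with a median of 4.28. SPT5 overlapped 12, 2 and 4 of these peaks, which was 20.0%, 3.39% and 7.69%. Of all TRIM28 peaks over 10000 bp from Pol II, 14.5% overlapped SPT5, so the chromosome 9 gap was above that share and the others below it.

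Single sites show the range. All positions are in hg19, and genes are not named because no annotation of that build was used. The tallest TRIM28 peak under 100 bp from Pol II was chr3:129143141-129143624, with a fold enrichment of 11.2, a summit 24 bp from that of Pol II and a Pol II fold enrichment of 2.61. The next were chr15:33501868-33502420, with 8.98 at 25 bp, and chr7:44807927-44808395, with 8.57 at 4 bp. The Pol II peaks beside these had fold enrichments of 4.35 and 5.00, so 1 of the 3 Pol II peaks was above the median of the Pol II list, 4.89.

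At 100 to 500 bp the tallest TRIM28 peaks were chr11:29540080-29540850, with 15.6 at 410 bp, chr20:32366248-32367318, with 12.2 at 188 bp, and chr17:16256252-16257174, with 11.5 at 205 bp. The Pol II fold enrichments beside them were 3.34, 3.18 and 13.5. They were also wide, at 771, 1071 and 923 bp.

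The Pol II peaks of highest fold enrichment with a TRIM28 summit under 100 bp carried moderate TRIM28 peaks. They lay at chr16:4421824-4422022, where TRIM28 had 4.12 and Pol II 24.7, at chr1:16171010-16171453, with 6.37 and 22.7, and at chr1:32801742-32801978, with 3.80 and 22.3. The summits were 7, 12 and 36 bp apart. Of the 9 named peaks within 500 bp, 9 overlapped Pol II and SPT5, 2 OGA and 1 O-GlcNAc. Of all TRIM28 peaks within 500 bp, 97.0% overlapped Pol II, 97.9% SPT5, 8.83% OGA and 43.7% O-GlcNAc.

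At 500 to 2000 bp the tallest were chr1:151879823-151880326, with 20.2 at 1817 bp, chr6:18265868-18266441, with 19.2 at 1215 bp, and chr16:30108129-30108698, with 18.9 at 965 bp. At 2000 to 10000 bp they were chr15:80207993-80208683, with 37.8 at 7989 bp, chr19:21518454-21519078, with 27.6 at 6545 bp, and chr2:171780152-171780793, with 26.2 at 5285 bp. These 6 overlapped no peak of Pol II or of the other 3 lists. Overlap with Pol II depends on the distance that defined the bins. Of all TRIM28 peaks, 29.6% at 500 to 2000 bp and 0.318% at 2000 to 10000 bp overlapped Pol II. In the same bins, 29.3% and 64.5% overlapped none of the other 3 lists.

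At 10000 to 100000 bp the tallest were chr17:78602599-78603834, with 32.7 at 27218 bp, chr1:9090960-9091626, with 32.4 at 21788 bp, and chr15:34453433-34454086, with 32.3 at 48410 bp. Over 100000 bp they were chr1:2787708-2788301, with 45.4 at 213451 bp, chr4:6060132-6060796, with 35.7 at 210797 bp, and chr18:10864669-10865189, with 35.2 at 238558 bp. The first of these was the tallest TRIM28 peak on chromosomes 1 to 22. None of these 6 overlapped a peak of the other lists. Of all TRIM28 peaks in these bins, 79.5% and 89.3% overlapped no SPT5, OGA or O-GlcNAc peak, and none overlapped Pol II.

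The summits farthest from Pol II were on chromosomes 4 and 13. The farthest was chr4:31201333-31201624, 4.31 Mb from the nearest Pol II summit, with a fold enrichment of 4.20. The others were chr13:64948571-64948793, at 3.98 Mb with 3.64, and chr13:65237349-65237691, at 3.97 Mb with 10.0. The chromosome 13 pair lay inside 1 gap between Pol II summits, and none of the 3 overlapped a peak of the other lists. Of all TRIM28 peaks over 100000 bp from Pol II, 89.3% overlapped no SPT5, OGA or O-GlcNAc peak, and none overlapped Pol II.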

How the data were processed

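Peaks were deposited by the authors as 1 list per library in the narrowPeak layout. Reads had been aligned in hg19, and the tools named are Bowtie2 2.1.0, Trimmomatic 0.30 and bcl2fastq 2.17, per the submitters' processing notes. The peak caller, control and cutoff were not given in the sources used here. No pooling of samples is stated. The deposited fold enrichment is a ratio, the deposited −log10 p and q rate each peak, and the deposited score, 10 times the −log10 q, was not used. Peaks were called separately per library, so a missing peak is not a measured absence.

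Groups came from the sample titles. The summit was the peak start plus the deposited offset, and distances ran to the closest summit in the other list on that chromosome. Chromosomes X and Y were left out of the comparison. Pol II density was counted over the span from the first to the last peak of a chromosome. Calculations used Python 3.11.15 with numpy 2.4.6, pandas 2.3.3 and scipy 1.17.1, and figures matplotlib 3.10.9. They were tested on simulated lists and checked against bedtools 2.31.1. With 1 library per target no test was possible.

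The peaks compared, the bins and the lists were chosen with earlier results of these data known. Named sites are the 3 tallest TRIM28 peaks of each bin, the 3 under 100 bp with the tallest Pol II peak, the 3 farthest summits, the 3 gaps and the 3 Pol II peaks with the most TRIM28 summits (the narrower first in a tie), and the 3 chromosomes with the highest and the lowest share within 500 bp. Chromosomes 8, 7 and 20 on the Pol II side were named after their values were seen. The reference table was of another build (GRCh38) and was not used. Alternatives covered the threshold, list length, distance measure, merging, broad Pol II peaks, the chromosomes used and the bins compared.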

Additional observations from a re-analysis of the deposited data

Results flagged for a closer look

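Chromosomes X and Y were outside the comparison, and some of the TRIM28 peaks called there lay close to Pol II. On chromosome X, 228 of 1005 TRIM28 summits, 22.7%, lay within 500 bp of a Pol II summit, and 63.4% lay over 10000 bp away. On chromosome Y, 8 of 41 summits, 19.5%, lay within 500 bp. Whether the reads placed on chromosome Y came from that chromosome was not examined. These values were picked out because the comparison left the chromosomes out. No control library was analysed beside them.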

How the results depend on the processing

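Neither the fold nor the width difference changed sign under any alternative tried. The share of TRIM28 summits within 500 bp of Pol II (27.4%) was 26.1% where both lists were limited to a −log10 q of 5 or more, 26.1% with the shortened TRIM28 list, 31.4% by the gap between peak edges, 27.9% by midpoints, 24.2% with peaks merged, 23.0% without Pol II peaks wider than 1000 bp and 26.8% without chromosome 19. The share over 10000 bp (52.6%) was 55.8%, 56.3%, 52.1%, 55.3%, 56.9% and 53.7% under the same settings, midpoints left out. The fold difference (−1.06) was −1.40 at the stricter threshold, −1.93 with the shortened list, −0.989 with peaks merged, −0.927 without broad Pol II peaks and −1.22 between the nearest and the farthest bin. The width difference (82 bp) was 111, 128, 132, 70 and 75 bp under these 5 settings and 75 bp by peak edges. In 4 equal groups of the TRIM28 list by width or −log10 p, chosen after seeing the data, the fold difference was −0.876 in the narrowest, −2.20 in the widest, −0.528 in the lowest by −log10 p and −2.69 in the highest, and the width difference 2, 61, 40 and 140 bp. The share of Pol II summits within 500 bp of TRIM28 (61.1%) was 46.6% at the stricter threshold, 27.1% with the shortened list, 67.4% by peak edges and 59.1% without broad Pol II peaks. In the settings with fewer peaks the list itself is shorter. For the rest the cause was not tested. Of these shares and differences, 14 other values stayed within the reported intervals. Of the shares of single bins and of the lowest and highest deciles by fold enrichment, 39 values left the reported interval and 25 did not. By peak edges, 29.4% of TRIM28 peaks lay under 100 bp (12.8% by summits) and 2.07% at 100 to 500 bp (14.7%), and the 500 to 2000 bp bin held 4.19% (7.10%). With the shortened list, 0.776% of the highest decile (1.93%) and 63.8% of the lowest (51.2%) lay within 500 bp.

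No paired analysis was possible because each target had 1 library. Leaving out a replicate was not possible either. Total reads are unknown, so no interval or share allows for depth, and a weak site missed in 1 list cannot be told apart from an unbound one. Heights were not compared between lists.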
